A study of Mus musculus with 6 samples.

Results

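The 39 Hox cluster genes of the mouse were followed in hair germ stem cells, the epithelial cells at the base of the resting hair follicle from which a new hair is started. Members were all genes whose symbol is Hox, a cluster letter from a to d and a paralog number, with antisense transcripts left out. That gave 39 of the 46517 genes listed, of which 11 lie in the Hoxa, 10 in the Hoxb, 9 in the Hoxc and 9 in the Hoxd cluster. RNA-seq libraries came from cells sorted from the back skin of mice aged 60 postnatal days, 3 days after depilation, the removal of hair that starts a new growth cycle. LEF1_TCF7dKO mice, called the double knockout here, carried Sox9-CreER, the reporter R26-lox-stop-lox-YFP, the conditional allele Lef1fl/fl and the null alleles Tcf7-/-. LEF1cKO mice carried Sox9-CreER, the same reporter and Lef1fl/fl. WT mice carried Sox9-CreER and the reporter alone, so that the Cre and the YFP reporter were shared by all groups. There were 2 libraries per group, the sex of the mice is labelled as mixed, and no label states that the libraries of a group are from separate animals. The p-values therefore measure the spread between these libraries only, which may be technical. Recombination of Lef1 depends on Cre made under Sox9 in the sorted cells or their ancestors, whereas Tcf7 is lost in every cell of the animal, the dermis and immune cells included. The sort used the YFP reporter and antibodies to P-cadherin, integrin b1, Sca-1 and CD34.

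Hox genes encode homeodomain transcription factors that give cells their address along the head-to-tail axis of the embryo. They lie side by side in 4 clusters on different chromosomes. The order along a cluster follows the paralog number: low numbers act anteriorly and high numbers posteriorly, and genes with the same number in different clusters are copies of one ancestral gene. Hox proteins bind DNA together with cofactors of the TALE class (Pbx, Meis and Pknox proteins), and Polycomb and trithorax complexes keep the clusters off or on. In adult skin the best known member is Hoxc13, which is needed for the hair shaft and nails of mice. Human dermal fibroblasts keep Hox patterns that differ by body site. LEF1 and TCF7 are DNA-binding partners of beta-catenin, the effector of Wnt signalling.

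The libraries held between 40480694 and 63220022 expected counts, and between 14743 and 16032 genes reached 1 TPM (RSEM's transcript abundance, scaled for gene length and library, which allows levels of different genes to be compared). Lef1 was at 9.22 and 9.42 TPM in double knockout, 13.5 and 8.37 TPM in LEF1cKO and 21.4 and 20.4 TPM in WT libraries. Tcf7 was at 13.7 and 18.0 TPM in double knockout, 29.3 and 27.8 TPM in LEF1cKO and 26.9 and 36.0 TPM in WT libraries. Both genes were lower in every double knockout library than in every WT library, and Lef1 was lower in both LEF1cKO libraries. In the double knockout Lef1 fell by 1.27 ± 0.25 (log2 ± SE, adjusted p = 0.0122) and Tcf7 fell by 1.37 ± 0.21 (adjusted p = 0.00641), and in LEF1cKO Lef1 did not pass (-0.92 ± 0.25, adjusted p = 0.282). These are sums over the whole gene and do not separate deleted from remaining exons. Of 12 hair germ and follicle stem cell markers, 4 rose and 6 fell in the double knockout against WT by edgeR's test, with a median log2 fold change of -0.50. Their summed level was nonetheless highest in the double knockout. It was 16849 and 21457 TPM in double knockout, 11098 and 14712 TPM in LEF1cKO and 12399 and 12869 TPM in WT libraries. The rises numbered 0 to 4 and the falls 1 to 7 when 1 library was left out, the lowest without WT replicate 2. Tcf7l1 fell (-1.81) at 11.1 and 11.6 TPM in double knockout and 32.2 and 33.7 TPM in WT libraries. Lhx2 fell (-1.37) at 114 and 198 TPM in double knockout and 337 and 381 TPM in WT libraries. The keratins Krt14 and Krt15, of basal and bulge keratinocytes, rose (1.02 and 1.21).

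In mm10 the Hoxa cluster lies on chromosome 6, the Hoxb cluster spans chr11:96194316-96368256, the Hoxc cluster spans chr15:102921103-103036852 and the Hoxd cluster spans chr2:74668310-74765142. Promoters were read for the members that had one listed, because LEF1 and TCF7 bind DNA directly. They ran from 250 bases before to 50 bases after the RefSeq transcription start in GRCm38.p6. Those of Hoxd8, Hoxd4, Hoxb8 and Hoxa7 are printed. Sequences are given 5′ to 3′ on the gene's own strand, and capitals mark the letters CTTTG followed by 2 bases that are each A or T, the LEF/TCF motif searched on both strands with no other motif overlapping it. The table held promoters for 22 of the 39 members, as 24 promoters. Hoxd8 and Hoxd4 fell in the double knockout, Hoxb8 fell with no match in its window, and Hoxa7 did not pass the test.
Hoxd8, chr2:74704365-74704664, plus strand: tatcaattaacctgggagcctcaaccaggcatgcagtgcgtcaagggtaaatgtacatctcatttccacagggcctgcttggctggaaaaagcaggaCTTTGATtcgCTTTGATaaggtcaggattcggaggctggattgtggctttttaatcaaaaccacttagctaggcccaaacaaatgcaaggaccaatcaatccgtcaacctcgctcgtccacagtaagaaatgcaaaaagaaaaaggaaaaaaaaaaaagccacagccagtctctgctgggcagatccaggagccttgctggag
Hoxd4, chr2:74721728-74722027, plus strand: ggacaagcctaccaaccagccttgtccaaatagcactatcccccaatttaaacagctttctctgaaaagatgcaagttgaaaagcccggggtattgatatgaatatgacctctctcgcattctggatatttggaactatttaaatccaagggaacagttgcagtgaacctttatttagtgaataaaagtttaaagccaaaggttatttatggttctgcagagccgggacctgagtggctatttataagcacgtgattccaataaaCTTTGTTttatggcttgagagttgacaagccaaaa
Hoxb8, chr11:96281655-96281954, plus strand: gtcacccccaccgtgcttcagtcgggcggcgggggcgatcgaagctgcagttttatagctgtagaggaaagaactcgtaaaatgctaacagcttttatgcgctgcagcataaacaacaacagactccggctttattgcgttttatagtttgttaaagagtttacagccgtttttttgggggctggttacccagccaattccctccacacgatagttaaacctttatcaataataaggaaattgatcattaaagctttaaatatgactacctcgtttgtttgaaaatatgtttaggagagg
Hoxa7, chr6:52218524-52218823, minus strand: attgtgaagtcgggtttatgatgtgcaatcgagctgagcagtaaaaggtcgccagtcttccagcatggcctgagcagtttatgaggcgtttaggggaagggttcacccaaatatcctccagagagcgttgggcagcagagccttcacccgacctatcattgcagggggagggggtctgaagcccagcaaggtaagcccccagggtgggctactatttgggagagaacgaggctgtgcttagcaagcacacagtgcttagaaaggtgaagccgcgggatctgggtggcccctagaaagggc
The Hoxd8 window holds 2 matches before the start and the Hoxd4 window 1 match after it, whereas the Hoxb8 and Hoxa7 windows hold 0. Other members that changed in the double knockout against WT, Hoxa5, Hoxb4, Hoxc4 and Hoxd10, also hold 0 in their windows. Hoxb2, Hoxb3, Hoxb5, Hoxb6, Hoxb7, Hoxb9, Hoxc6 and Hoxc8, which fell too, had no promoter to read. The motif was in 4 of 24 Hox promoters (16.7%), those of Hoxa11, Hoxd12, Hoxd4 and Hoxd8. Among all 32851 promoters 5544 (16.9%) held it, which is close to the Hox share. A match is a description of letters, not of binding, and a window without one says nothing on binding elsewhere.

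Levels by cluster and by paralog number set the frame. A mean of 1 TPM was reached by 23 of the 39 members in the double knockout, 22 in LEF1cKO and 23 in WT, and by 24 in at least 1 group. In WT 13 members reached 10 TPM. The other 15 stayed below 1 TPM in all groups: Hoxa10, Hoxa11, Hoxa13, Hoxb1, Hoxb13, Hoxc9 to Hoxc12, Hoxd1, Hoxd3 and Hoxd10 to Hoxd13. Of the paralogs numbered 10 to 13, only Hoxc13 reached 1 TPM in any group. In the double knockout the order of levels began with Hoxa7 (48.7 TPM), Hoxc13 (28.9 TPM), Hoxc8 (19.7 TPM), Hoxb8 (17.1 TPM) and Hoxa5 (17.0 TPM). In LEF1cKO it began with Hoxb8 (69.7 TPM), Hoxb6 (50.5 TPM), Hoxc13 (40.9 TPM) and Hoxa7 (38.0 TPM). In WT it began with Hoxb8 (64.8 TPM), Hoxb6 (55.2 TPM), Hoxd8 (39.8 TPM), Hoxc13 (39.5 TPM) and Hoxa7 (38.4 TPM). The libraries of WT overlap for Hoxd8, Hoxc13 and Hoxa7, so the order among these 3 is within their spread. The same holds in the double knockout for Hoxb8 (13.7 and 20.5 TPM) with Hoxc8 and with Hoxa5. In LEF1cKO it holds for Hoxa7 (29.0 and 46.9 TPM) with Hoxc13 and with Hoxb6.

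**Figure D1:**
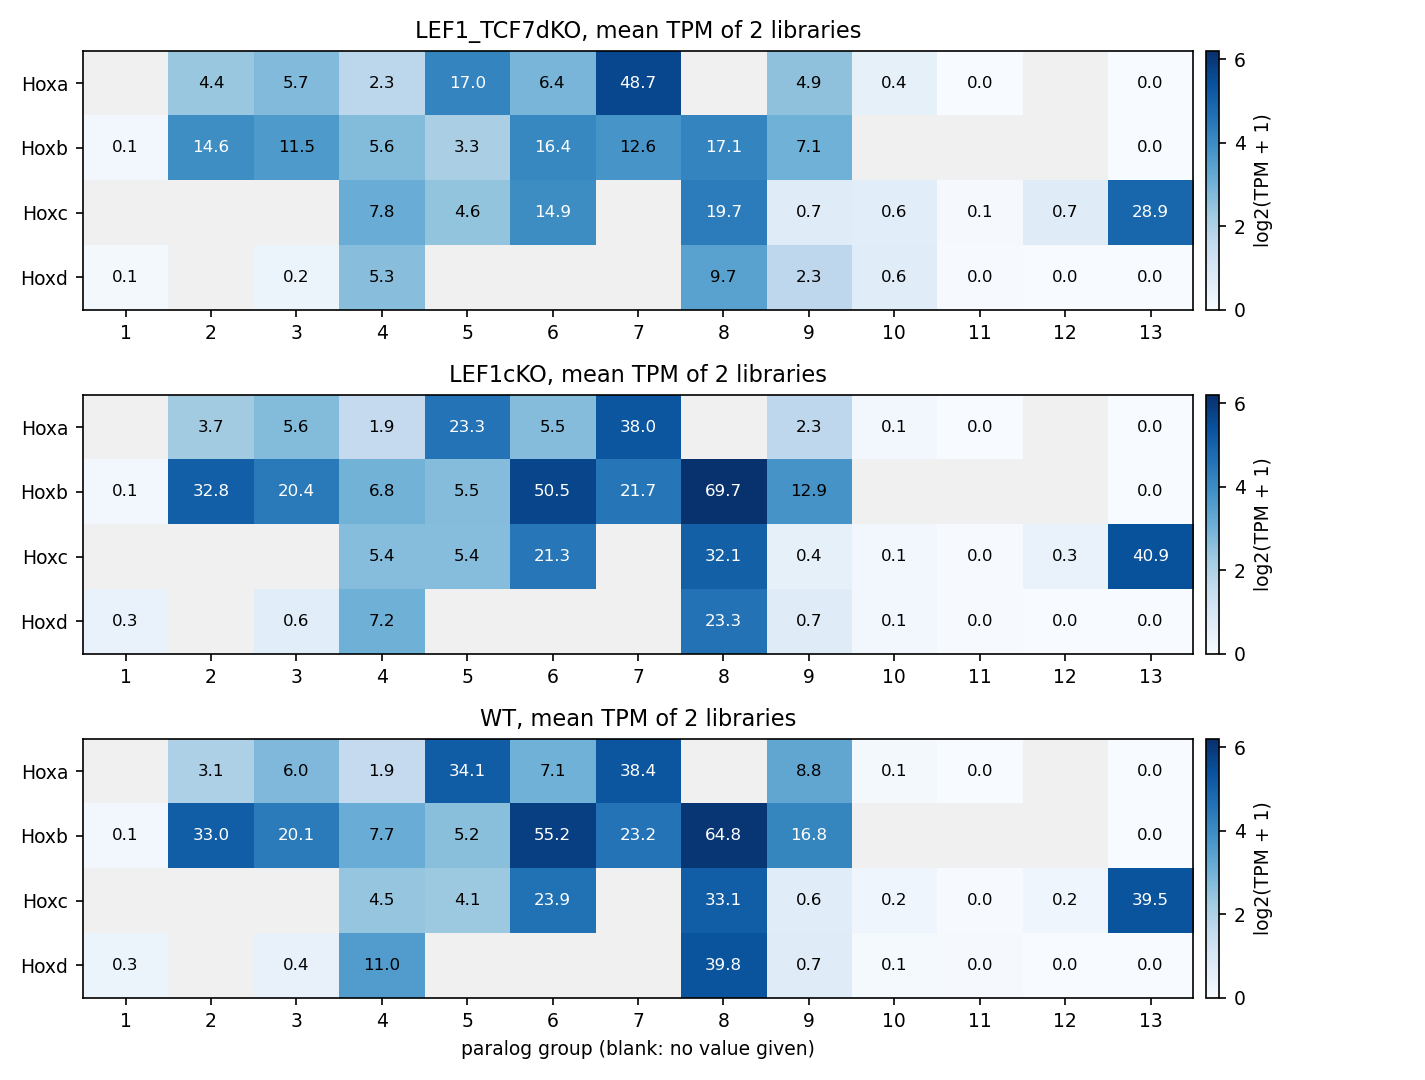
Mean TPM of each member (number in each cell, n = 2 libraries) by cluster (rows) and paralog number (columns) in the double knockout, LEF1cKO and WT, with colour on the log2(TPM + 1) scale and blank cells where no value is given. Paralogs 2 to 9 and Hoxc13 carry the signal in all 3 groups, and the Hoxb row is paler in the double knockout.

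Summed over all members, Hox TPM was 254 and 297 in double knockout, 434 and 447 in LEF1cKO and 474 and 497 in WT libraries. The double knockout mean was 0.567 of the WT mean, and that of LEF1cKO was 0.906 of it. The clusters differed in how much of this they carried. Hoxb summed to 78.6 and 98.1 TPM in double knockout, 228 and 213 TPM in LEF1cKO and 220 and 233 TPM in WT libraries. Hoxd summed to 20.02 and 16.6 TPM in double knockout, 32.6 and 31.9 TPM in LEF1cKO and 49.3 and 55.1 TPM in WT libraries. The Hoxb sum separated the double knockout from both other groups, while the Hoxd sum stood in 3 steps with no overlap. Hoxc summed to 66.4 and 89.3 TPM in double knockout, 104 and 108 TPM in LEF1cKO and 108 and 105 TPM in WT libraries. Hoxa summed to 88.6 and 93.0 TPM in double knockout, 68.8 and 93.8 TPM in LEF1cKO and 97.3 and 104 TPM in WT libraries. The ratio of the double knockout to the WT mean was 0.351 for Hoxd, 0.390 for Hoxb, 0.733 for Hoxc and 0.900 for Hoxa. As a share of all Hox TPM, Hoxb made up 32.02% in double knockout, 50.1% in LEF1cKO and 46.6% in WT cells, and Hoxa made up 33.1% in double knockout, 18.4% in LEF1cKO and 20.8% in WT cells.

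**Figure D2:**
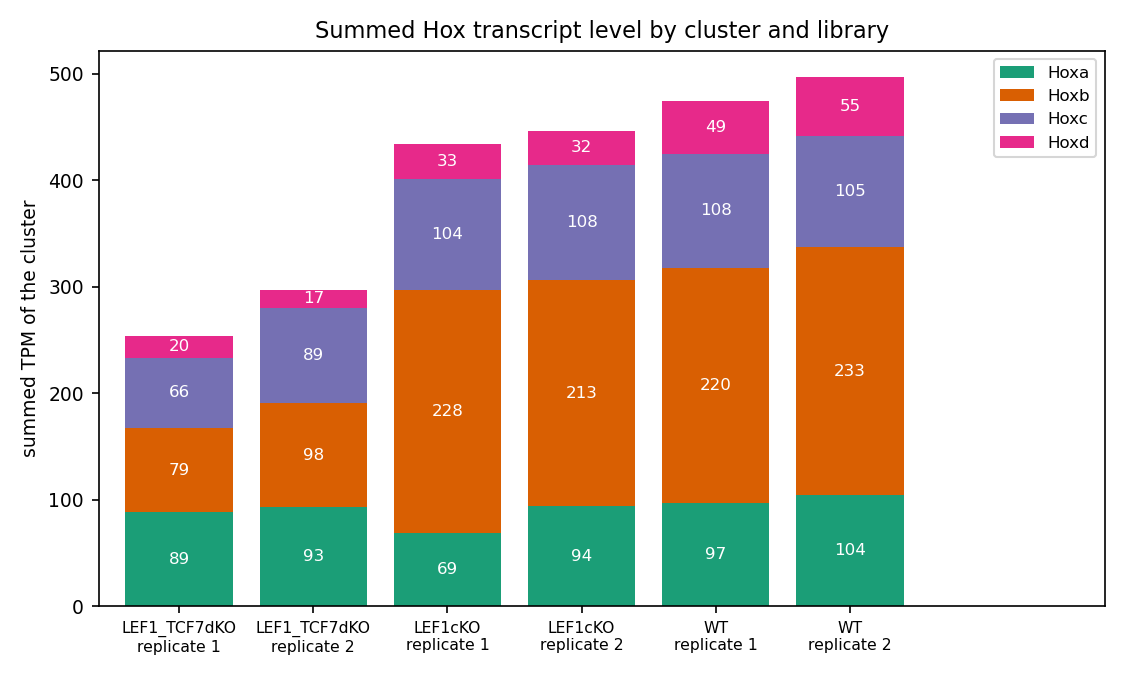
Summed TPM of the members of each cluster, stacked, for each library of the double knockout, LEF1cKO and WT. The double knockout bars reach 254 and 297 TPM, against 474 and 497 TPM in WT, and the Hoxb block shrinks most in TPM.

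By paralog number, the sums of groups 2, 3, 5, 6, 8 and 13 were lower in both double knockout libraries than in all others. Those of groups 4 and 9 were lower than in WT but overlapped LEF1cKO, while that of group 7 was close in all groups. A lower sum does not show that each member was lower. In WT Hoxb2 averaged 33.0 TPM of the 36.1 TPM of group 2, while Hoxa2 lay higher in the double knockout than in WT libraries. Group 13 was nearly all Hoxc13, which did not pass edgeR's test against WT (adjusted p = 0.0775). The ratio of the double knockout to the WT mean was lowest for group 8 (0.338) and group 6 (0.437). It was 0.524 for group 2, 0.556 for group 9, 0.572 for group 5 and 0.659 for group 3. Paralog group 8 (Hoxb8, Hoxc8 and Hoxd8) summed to 41.7 and 51.4 TPM in double knockout, 126 and 124 TPM in LEF1cKO and 131 and 145 TPM in WT libraries. Paralog group 6 averaged 37.7 TPM in double knockout, 77.3 TPM in LEF1cKO and 86.3 TPM in WT cells. Paralog group 7 (Hoxa7 and Hoxb7) summed to 59.97 and 62.5 TPM in double knockout, 50.9 and 68.5 TPM in LEF1cKO and 61.3 and 62.1 TPM in WT libraries. Within that overlap, Hoxb7 was lower and Hoxa7 higher in both double knockout libraries than in both WT libraries. Paralog group 10 was low but ran the other way, at 1.92 and 1.44 TPM in double knockout, 0.26 and 0.48 TPM in LEF1cKO and 0.42 and 0.26 TPM in WT libraries.

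Of the 39 members, 32 had enough counts to be tested. In the double knockout against WT, 15 of the 32 passed (edgeR quasi-likelihood F test, Benjamini-Hochberg adjusted p under 0.05 over 19640 genes), 2 of them higher and 13 lower. That is 46.9% of the tested members, against 37.6% of all tested genes called in this comparison. All genes split into 18.0% that rose and 19.6% that fell, whereas 40.6% of the tested members fell. The median log2 fold change was -0.53 over the tested members and 0.01 over all tested genes. By cluster, 8 of 9 tested Hoxb members fell and 0 rose, 1 of 9 Hoxa members fell, 2 of 8 Hoxc members fell and 1 rose, and 2 of 6 Hoxd members fell and 1 rose. By paralog number, 2 of 8 tested members numbered 1 to 3 fell, 11 of 19 numbered 4 to 9 fell and 1 rose, and 1 of 5 numbered 10 to 13 rose. Since these are bulk samples, fewer cells that make a transcript and less of it per cell cannot be told apart. Leaving out WT replicate 1, WT replicate 2 or double knockout replicate 1 left 7, 5 or 9 members called, against 13.0%, 9.54% or 14.7% of all tested genes. In such fits the lone library of its group is taken to vary like the other groups.

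**Figure D3:**
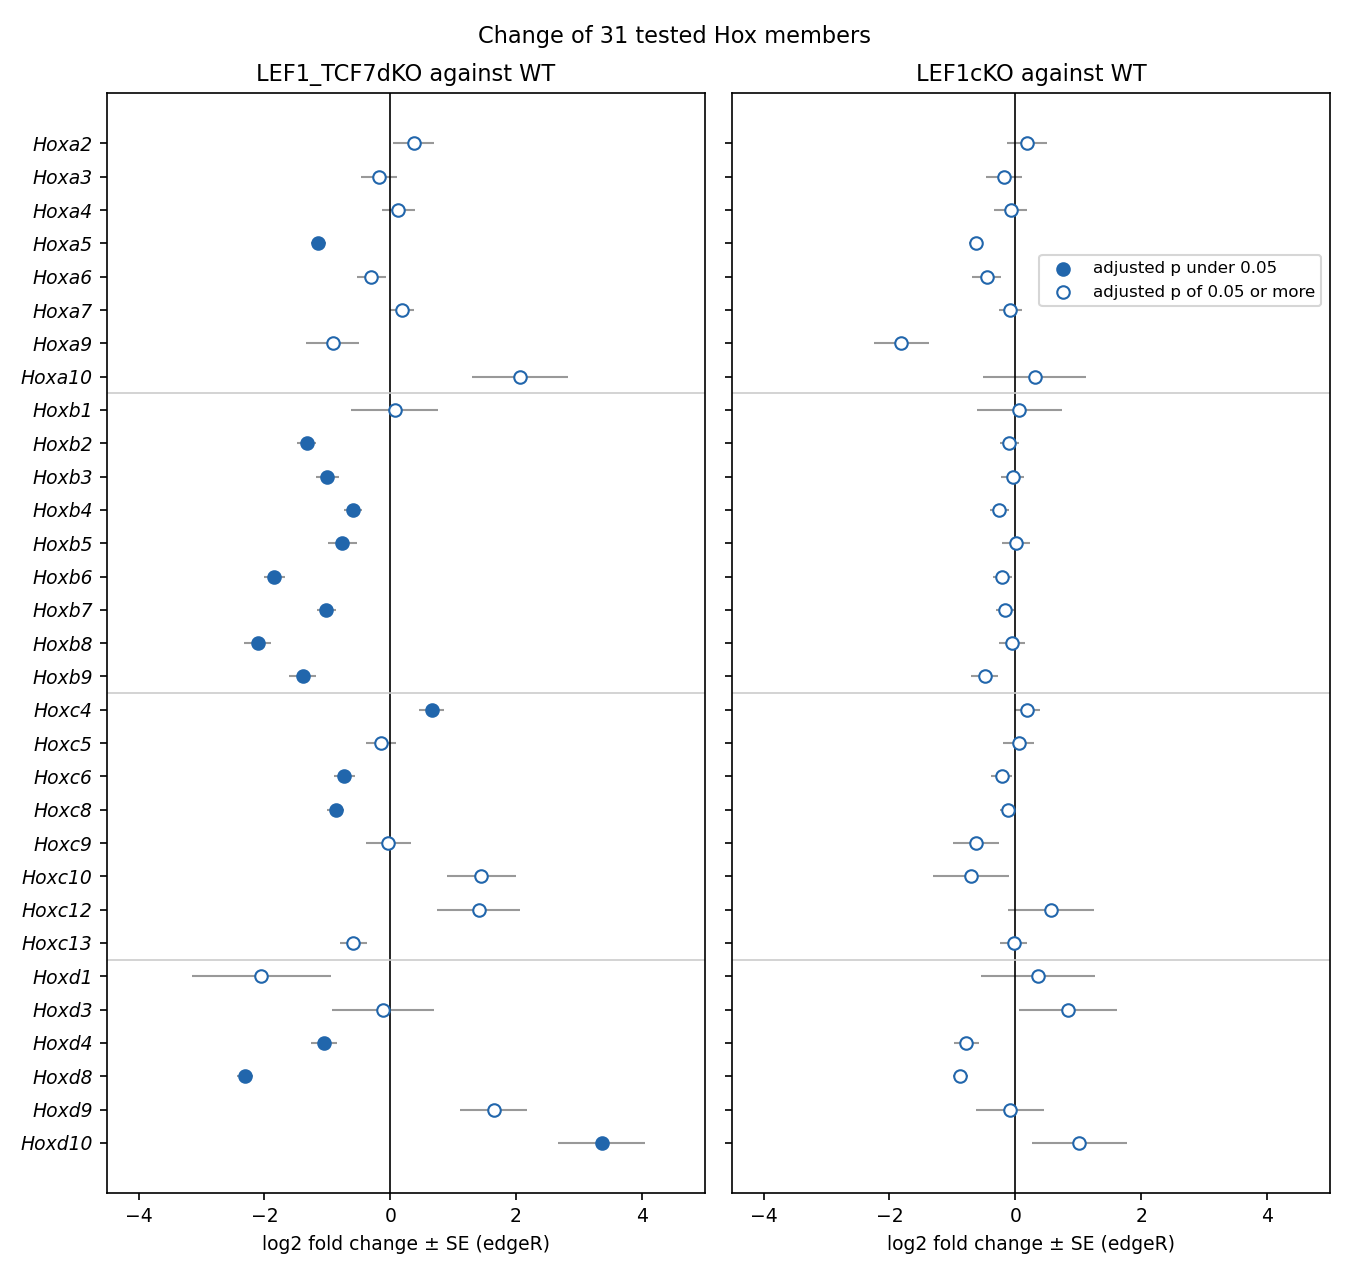
Log2 fold change ± SE of 31 tested members, ordered by cluster and paralog number, for the double knockout against WT (left) and LEF1cKO against WT (right), with filled points where the adjusted p was under 0.05. On the left 15 points are filled, 13 of them below 0 and 8 of these in Hoxb, and on the right 0 are filled.

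Libraries of the double knockout also had higher summed levels of fibroblast, epidermis, immune and endothelial markers than the other libraries. The same held for the summed hair germ and follicle stem cell markers given earlier. These levels are given here beside the counts above. Of 20 fibroblast and dermal papilla markers 16 rose and 1 fell in the double knockout against WT. Their summed level was 2416 to 3074 TPM in double knockout, 756 to 1358 TPM in LEF1cKO and 417 to 705 TPM in WT libraries, and 0 of the 20 were at 0 in every library. Among them Col1a1, a collagen of the dermis, was at 430 and 361 TPM in double knockout, 88.2 and 206 TPM in LEF1cKO and 43.0 and 15.2 TPM in WT libraries. All double knockout libraries lay above all others on that list. Of 12 markers of differentiated epidermis 9 rose, with sums of 13369 to 14305 TPM in double knockout, 3567 to 3592 TPM in LEF1cKO and 1475 to 1843 TPM in WT libraries. Of 10 immune markers 7 rose, with sums of 731 to 773 TPM in double knockout, 174 to 281 TPM in LEF1cKO and 37.2 to 104 TPM in WT libraries. Of 10 endothelial and mural markers 8 rose, with sums of 108 to 277 TPM in double knockout, 25.4 to 30.2 TPM in LEF1cKO and 28.8 to 72.8 TPM in WT libraries. Of 9 tested melanocyte, Schwann and Merkel cell markers 3 rose, with sums of 357 and 552 TPM in double knockout, 400 and 270 TPM in LEF1cKO and 615 and 423 TPM in WT libraries. Atoh1 of Merkel cells was at 0 in every library. Of 7 sebaceous gland markers 1 rose, with sums of 2254 and 895 TPM in double knockout, 302 and 847 TPM in LEF1cKO and 437 and 390 TPM in WT libraries. Of 6 tested adipocyte, muscle and blood markers 2 rose and 2 fell, with sums of 119.8 and 6.69 TPM in double knockout, 6.19 and 2.34 TPM in LEF1cKO and 10.02 and 3.99 TPM in WT libraries. Double knockout replicate 1 was the highest library on both lists. Without double knockout replicate 1 the rises numbered 4 fibroblast, 2 endothelial, 4 immune, 1 melanocyte, Schwann and Merkel, 0 sebaceous and 0 adipocyte, muscle and blood markers. Without WT replicate 2 they numbered 7 fibroblast, 2 endothelial, 1 melanocyte, Schwann and Merkel, 0 sebaceous and 0 adipocyte, muscle and blood markers, and without WT replicate 1 they numbered 14, 2, 1, 0 and 0 on the same lists in that order. Rises of epidermis markers ranged from 7 to 12 over the fits that left out 1 library, and those of sebaceous markers reached 4 without LEF1cKO replicate 1 and 4 without LEF1cKO replicate 2. The part of these cells in the Hox differences was not tested.

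In the Hoxb cluster Hoxb2 to Hoxb9 fell, and Hoxb2, Hoxb6 and Hoxb8 are described first because their calls held in every fit that left out 1 library. Hoxb8, a thoracic patterning gene known in mice for grooming behaviour and microglia (chr11:96281905-96285315, plus strand), was at 13.7 and 20.5 TPM in double knockout, 72.6 and 66.9 TPM in LEF1cKO and 61.0 and 68.7 TPM in WT libraries. Hoxb6, which also acts in the thoracic region, was at 15.3 and 17.5 TPM in double knockout, 55.2 and 45.8 TPM in LEF1cKO and 53.9 and 56.5 TPM in WT libraries. Hoxb2, known from hindbrain patterning, was at 12.8 and 16.3 TPM in double knockout, 33.9 and 31.7 TPM in LEF1cKO and 32.2 and 33.9 TPM in WT libraries. For these 3 genes both double knockout libraries lay below all other libraries, and LEF1cKO and WT libraries overlapped. The means were 17.1 ± 4.85 TPM in the double knockout and 64.8 ± 5.4 TPM in WT cells for Hoxb8 (SD, 2 libraries each). Hoxb6 averaged 16.4 ± 1.53 TPM in the double knockout and 55.2 ± 1.85 TPM in WT cells. Against WT, Hoxb8 fell by 2.11 ± 0.22 on the log2 scale (4.31-fold lower, adjusted p = 0.00343). Hoxb6 fell by 1.84 ± 0.16 (3.58-fold lower, adjusted p = 0.00271), and Hoxb2 fell by 1.33 ± 0.16 (adjusted p = 0.00402). All 3 calls held in each of the 6 fits that left out 1 library.

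Hoxb9, Hoxb7, Hoxb3, Hoxb5 and Hoxb4 fell too. Hoxb3, a hindbrain and neck gene, was at 9.68 and 13.3 TPM in double knockout, 21.8 and 19.0 TPM in LEF1cKO and 20.3 and 19.98 TPM in WT libraries. Hoxb7 was at 11.4 and 13.8 TPM in double knockout, 21.9 and 21.6 TPM in LEF1cKO and 24.4 and 22.1 TPM in WT libraries. Hoxb9, a thoracic gene, was at 6.08 and 8.12 TPM in double knockout, 10.9 and 14.9 TPM in LEF1cKO and 15.5 and 18.1 TPM in WT libraries. The double knockout again lay below the other groups, and for Hoxb7 and Hoxb9 the LEF1cKO libraries lay between the others. Hoxb9 fell by 1.39 ± 0.22 (adjusted p = 0.00694), Hoxb7 fell by 1.01 ± 0.15 (adjusted p = 0.00618) and Hoxb3 fell by 1.003 ± 0.19 (adjusted p = 0.01). Hoxb4, best known for its use in expanding blood stem cells, was at 5.67 and 5.62 TPM in double knockout, 6.54 and 7.14 TPM in LEF1cKO and 7.73 and 7.71 TPM in WT libraries. Hoxb5 was at 3.81 and 2.76 TPM in double knockout, 5.45 and 5.58 TPM in LEF1cKO and 5.0 and 5.46 TPM in WT libraries. Both were lower in each double knockout library than in any other, and Hoxb4 fell by 0.59 ± 0.15 (adjusted p = 0.0241) and Hoxb5 fell by 0.76 ± 0.23 (adjusted p = 0.0436). Hoxb1, a hindbrain gene, lay between 0.06 and 0.18 TPM in all libraries and did not pass (0.07 ± 0.69, adjusted p = 0.944), and Hoxb13, a posterior gene of the prostate, had too few counts to be tested.

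Several of these calls were lost without a single library, while the direction stayed the same. Without WT replicate 1 the adjusted p was 0.0566 for Hoxb3, 0.0538 for Hoxb7, 0.164 for Hoxb4 and 0.134 for Hoxb5. Without WT replicate 2 it was 0.0651 for Hoxb3, 0.0513 for Hoxb7, 0.0545 for Hoxb9, 0.177 for Hoxb4 and 0.232 for Hoxb5. Hoxb4 also lost its call without double knockout replicate 1 (0.088) or 2 (0.0577), and Hoxb5 without double knockout replicate 1 (0.0555) or 2 (0.123) and without LEF1cKO replicate 1 (0.0517) or 2 (0.0506). With all libraries, Hoxb4 and Hoxb5 did not pass with no filter on low counts (0.0524 and 0.0557) or by limma on log2(TPM + 1) (0.0675 and 0.0622), and Hoxb5 did not with library size only (0.0685). Over the fits that left out 1 library, the log2 fold change lay between -1.27 and -0.76 for Hoxb3, -1.15 and -0.88 for Hoxb7, -1.67 and -1.15 for Hoxb9, -0.62 and -0.55 for Hoxb4 and -0.97 and -0.57 for Hoxb5. Leaving out 1 library left between 3 and 7 Hoxb falls in place of 8, the lowest without WT replicate 2 and the next, at 4, without WT replicate 1.

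**Figure D4:**
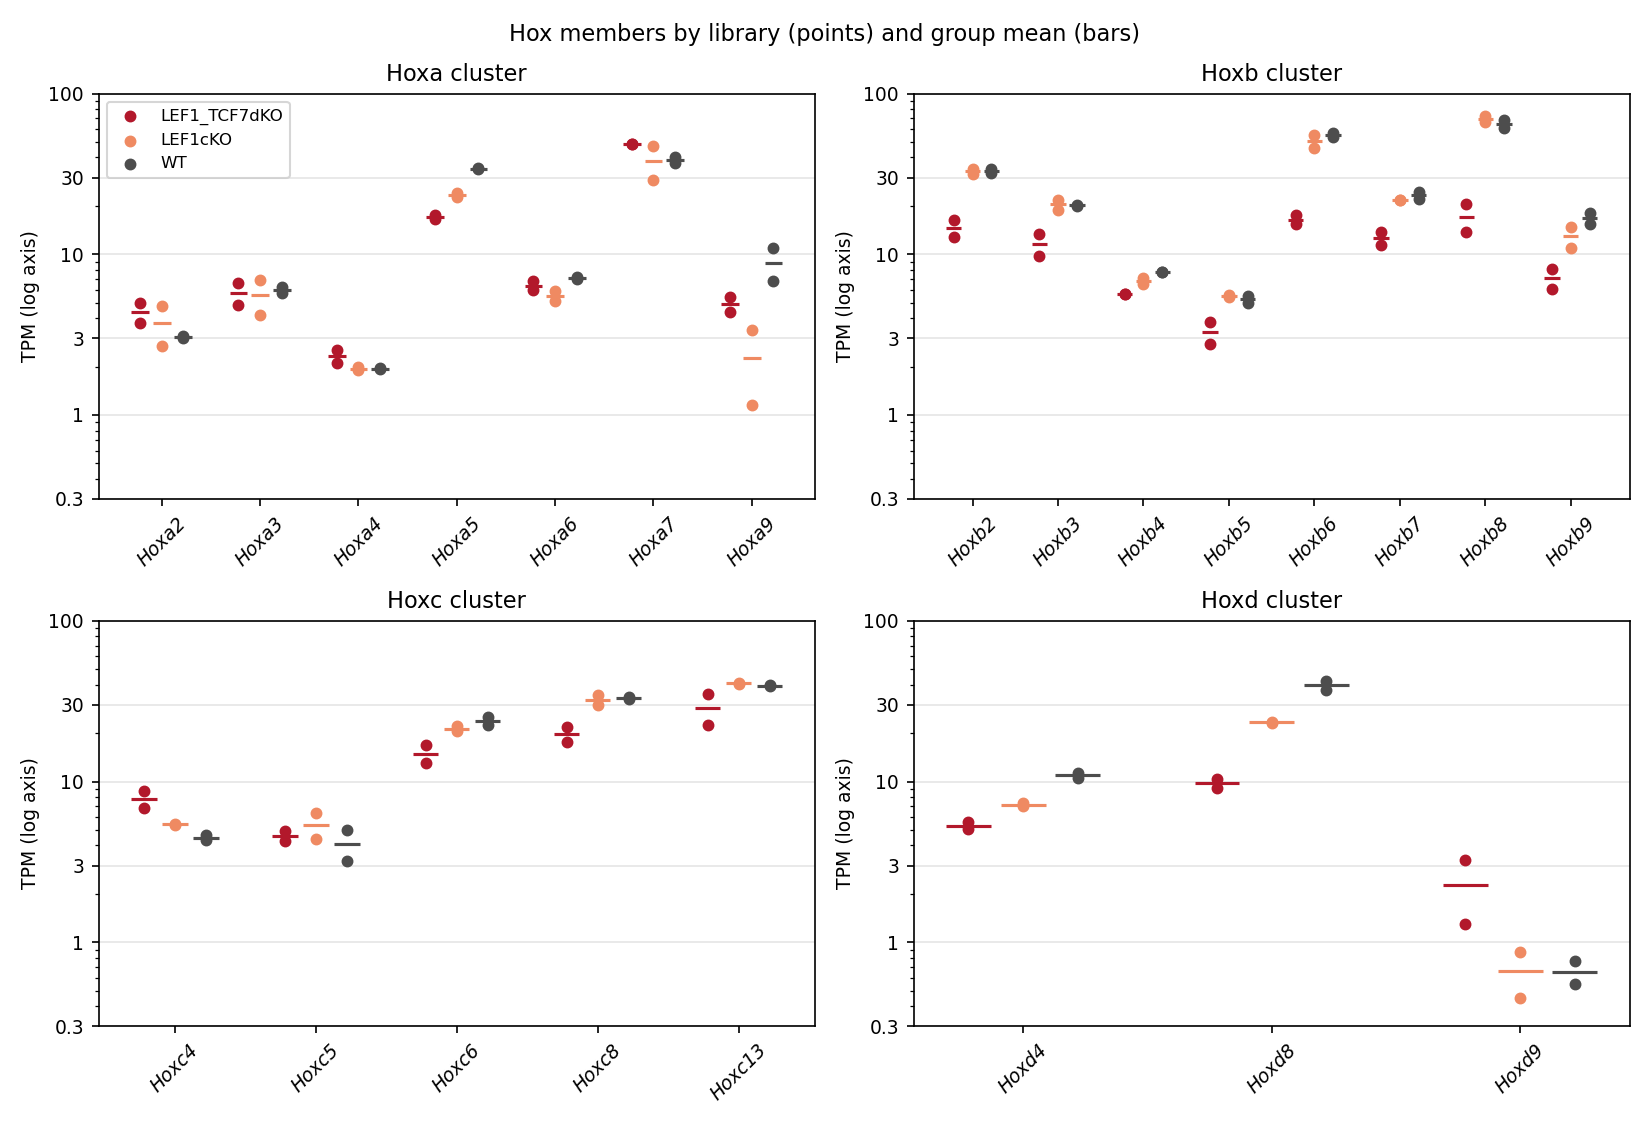
TPM of the members with a mean of at least 1 TPM in any group, on a log axis, with points for libraries and bars for group means (double knockout, LEF1cKO and WT, n = 2 each). The double knockout points of Hoxb6, Hoxb8 and Hoxd8 lie below those of WT, those of Hoxd9 lie above, and Hoxa7 has its highest points in the double knockout.

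In the Hoxd cluster, Hoxd8 showed the largest fold fall among all called members. It lies at chr2:74704615-74707933 in mm10 and was at 10.3 and 9.11 TPM in double knockout, 23.3 and 23.3 TPM in LEF1cKO and 37.2 and 42.5 TPM in WT libraries. The 3 groups did not overlap, with LEF1cKO between the others. It averaged 9.72 ± 0.863 TPM in the double knockout, 23.3 ± 0.0354 TPM in LEF1cKO and 39.8 ± 3.73 TPM in WT cells (SD, 2 libraries each). Against WT, Hoxd8 fell by 2.31 ± 0.13 (4.96-fold lower, adjusted p = 0.00115), with a highest adjusted p of 0.0177 when 1 library was left out. Hoxd4, a neck-level gene, was at 5.04 and 5.59 TPM in double knockout, 7.37 and 7.0 TPM in LEF1cKO and 10.6 and 11.4 TPM in WT libraries. It stood in 3 steps too, and fell by 1.05 ± 0.20 against WT (adjusted p = 0.0109). It no longer passed in fits without WT replicate 1 (adjusted p = 0.0524), WT replicate 2 (0.102) or double knockout replicate 1 (0.0634). Hoxd9 was at 3.26 and 1.30 TPM in double knockout, 0.45 and 0.87 TPM in LEF1cKO and 0.76 and 0.55 TPM in WT libraries. Its double knockout libraries lay above the rest but differed from each other, and it did not pass (1.65 ± 0.54, adjusted p = 0.0549), although it did without double knockout replicate 2 (0.033) and, with all libraries, by DESeq2 (0.0234), with no filter (0.0234) and with the 1 CPM filter (0.0491). Hoxd1 lay between 0 and 0.38 TPM and Hoxd3 between 0.17 and 0.88 TPM, and neither passed (adjusted p = 0.191 and 0.921).

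In the Hoxa cluster only Hoxa5 passed against WT. This gene, needed for lung and neck development in mice, was at 16.5 and 17.5 TPM in double knockout, 23.9 and 22.7 TPM in LEF1cKO and 33.9 and 34.3 TPM in WT libraries. The groups did not overlap, and means were 17.0 ± 0.714 TPM in the double knockout, 23.3 ± 0.884 TPM in LEF1cKO and 34.1 ± 0.269 TPM in WT cells (SD, 2 libraries each). Hoxa5 fell by 1.15 ± 0.12 in the double knockout (2.21-fold lower, adjusted p = 0.00342) and passed in each fit that left out 1 library, at 0.0307 or less. Hoxa7, a thoracic patterning gene, was at 48.6 and 48.8 TPM in double knockout, 29.0 and 46.9 TPM in LEF1cKO and 36.9 and 40.0 TPM in WT libraries. Its double knockout libraries were the highest, but the difference was not past the threshold (0.19 ± 0.19, adjusted p = 0.478). As a share of all Hox TPM it made up 19.2% and 16.4% in double knockout, 6.69% and 10.5% in LEF1cKO and 7.78% and 8.05% in WT libraries. Hoxb8 took 5.39% and 6.91% in double knockout, 16.7% and 15.0% in LEF1cKO and 12.9% and 13.8% in WT libraries.

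Hoxa2, Hoxa3, Hoxa4, Hoxa6 and Hoxa9 did not pass in the double knockout against WT. Both double knockout libraries lay above both WT libraries for Hoxa2 and Hoxa4, and below them for Hoxa6 and Hoxa9. For Hoxa9 none of the groups overlapped. Hoxa2, which patterns the second pharyngeal arch, was at 3.72 and 4.98 TPM in double knockout, 2.68 and 4.75 TPM in LEF1cKO and 3.12 and 3.02 TPM in WT libraries. Hoxa3, needed for thymus and parathyroid, was at 4.84 and 6.60 TPM in double knockout, 4.17 and 6.96 TPM in LEF1cKO and 6.26 and 5.73 TPM in WT libraries. Neither passed against WT, with log2 fold changes of 0.37 ± 0.32 for Hoxa2 and -0.18 ± 0.28 for Hoxa3 (adjusted p = 0.401 and 0.655). Hoxa4 was at 2.10 and 2.55 TPM in double knockout, 1.90 and 1.99 TPM in LEF1cKO and 1.92 and 1.95 TPM in WT libraries. Hoxa6 was at 5.97 and 6.79 TPM in double knockout, 5.15 and 5.88 TPM in LEF1cKO and 7.05 and 7.23 TPM in WT libraries. Hoxa4 (0.13 ± 0.26, adjusted p = 0.731) and Hoxa6 (-0.30 ± 0.23, adjusted p = 0.344) did not pass. Hoxa9, a gene of blood progenitors and leukaemia, was at 5.45 and 4.39 TPM in double knockout, 1.16 and 3.37 TPM in LEF1cKO and 6.79 and 10.9 TPM in WT libraries. It was lowest in LEF1cKO, spread widely within groups and did not pass in the double knockout (-0.91 ± 0.42, adjusted p = 0.138), although it did with only the 2 groups compared (0.0458) and without LEF1cKO replicate 1 (0.0476) or 2 (0.0475).

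In the Hoxc cluster Hoxc8 and Hoxc6 fell and Hoxc4 rose. Hoxc8, a thoracic gene, was at 17.7 and 21.7 TPM in double knockout, 29.9 and 34.3 TPM in LEF1cKO and 32.7 and 33.5 TPM in WT libraries. Hoxc6, also thoracic, was at 13.1 and 16.8 TPM in double knockout, 22.02 and 20.65 TPM in LEF1cKO and 25.3 and 22.5 TPM in WT libraries. Both lay lower in each double knockout library than in any other library, and Hoxc8 fell by 0.87 ± 0.14 (adjusted p = 0.00678) and Hoxc6 fell by 0.73 ± 0.17 (adjusted p = 0.0199). Hoxc4 was at 6.84 and 8.76 TPM in double knockout, 5.36 and 5.47 TPM in LEF1cKO and 4.65 and 4.31 TPM in WT libraries. It was higher in each double knockout library and rose by 0.66 ± 0.20 (adjusted p = 0.0483). Hoxc8 lost its call without WT replicate 2 (adjusted p = 0.0569), and Hoxc6 without WT replicate 1 (0.142), WT replicate 2 (0.10) or double knockout replicate 1 (0.0908). The Hoxc4 call was lost without any 1 of the 6 libraries, at 0.178 and 0.257 without WT replicates 1 and 2, 0.0608 and 0.0567 without LEF1cKO replicates 1 and 2, and 0.0511 and 0.169 without double knockout replicates 1 and 2. With all libraries it did not pass with RLE size factors (0.0516), with no filter on low counts (0.0783), by limma with no filter (0.0623) or with only the 2 groups compared (0.0544).

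Hoxc13, the hair shaft gene, was at 22.5 and 35.2 TPM in double knockout, 41.2 and 40.7 TPM in LEF1cKO and 39.2 and 39.9 TPM in WT libraries. Both double knockout libraries lay below the rest, but they differed from each other and the gene did not pass (-0.59 ± 0.22, adjusted p = 0.0775), while it passed without double knockout replicate 2 (0.0157) and with no filter (0.046). Hoxc5 was at 4.24 and 4.90 TPM in double knockout, 4.38 and 6.34 TPM in LEF1cKO and 4.97 and 3.20 TPM in WT libraries, and its groups overlapped (-0.15 ± 0.24, adjusted p = 0.667). Hoxc9 lay between 0.41 and 0.79 TPM in all libraries.

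Among the low posterior members Hoxd10 rose in the double knockout against WT. Hoxd10, known from lumbar and hindlimb patterning, was at 0.92 and 0.37 TPM in double knockout, 0.15 and 0.09 TPM in LEF1cKO and 0.05 and 0.06 TPM in WT libraries. Its counts were 39 and 17 in double knockout, 8 and 5 in LEF1cKO and 3 and 4 in WT libraries. Hoxd10 rose by 3.36 ± 0.69 on the log2 scale against WT (adjusted p = 0.0138), but did not pass without WT replicate 1 (0.0916), WT replicate 2 (0.0965) or double knockout replicate 1 (0.0835), and by limma with no filter (0.0597). Hoxc10 was at 0.60 and 0.58 TPM in double knockout, 0.07 and 0.19 TPM in LEF1cKO and 0.26 and 0.14 TPM in WT libraries. Hoxa10, needed for the uterus, was at 0.40 and 0.49 TPM in double knockout, 0.04 and 0.20 TPM in LEF1cKO and 0.11 and 0.06 TPM in WT libraries. Both were highest in the double knockout without overlap, and neither passed against WT (1.45 ± 0.55, adjusted p = 0.0841 for Hoxc10 and 2.06 ± 0.76, adjusted p = 0.0775 for Hoxa10), although both did by limma with no filter (0.0369 and 0.0359). Hoxc12 was at 0.64 and 0.67 TPM in double knockout, 0.51 and 0.19 TPM in LEF1cKO and 0.15 and 0.29 TPM in WT libraries, and did not pass (1.40 ± 0.66, adjusted p = 0.145). Summed over paralogs 10 to 13 without Hoxc13, the level was 2.65 and 2.19 TPM in double knockout, 0.85 and 0.74 TPM in LEF1cKO and 0.68 and 0.58 TPM in WT libraries. The 7 members not tested, Hoxa11, Hoxa13, Hoxb13, Hoxc11, Hoxd11, Hoxd12 and Hoxd13, had at most 5.82 counts in any library, and Hoxa13, Hoxd12 and Hoxd13, genes of digits and genitalia, were at 0 in every library. Beside these low levels, the summed fibroblast markers were at 3074 and 2416 TPM in double knockout, 756 and 1358 TPM in LEF1cKO and 705 and 417 TPM in WT libraries, and the part of fibroblasts in the posterior Hox levels was not tested.

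**Figure D5:**
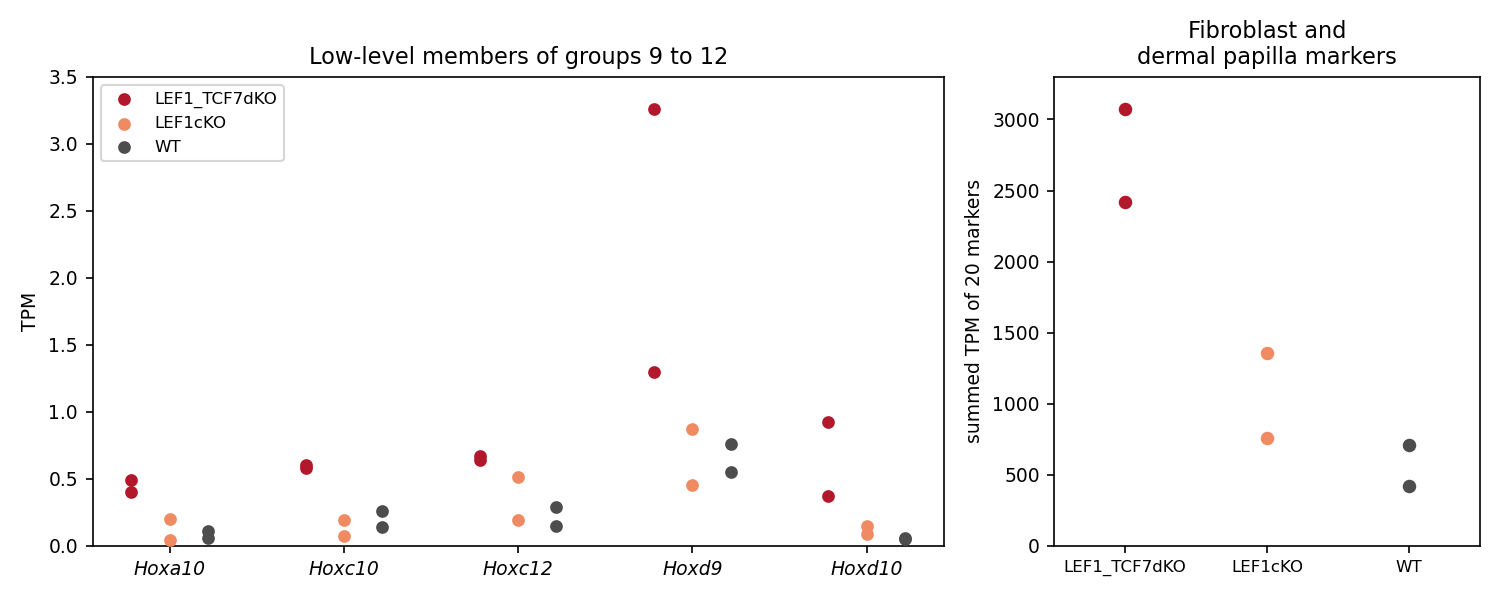
Left, TPM of Hoxa10, Hoxc10, Hoxc12, Hoxd9 and Hoxd10 in each library, and right, the summed TPM of 20 fibroblast and dermal papilla markers in the same libraries. Both panels are highest in the double knockout libraries, with Hoxd10 at 0.92 and 0.37 TPM and the markers at 3074 and 2416 TPM there. Not every low member of these paralog groups is drawn. Hoxc9, left out, overlapped between double knockout (0.72 and 0.63 TPM) and WT libraries (0.49 and 0.79 TPM). Hoxa11, Hoxc11, Hoxd11 and Hoxd12, also left out, had too few counts to be tested.

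Setting the double knockout against LEF1cKO asks what the added loss of Tcf7 goes with, since both carry the Lef1 deletion. Markers of other cells differed here too. Of these, 7 of 12 epidermis, 5 of 20 fibroblast, 4 of 10 endothelial and mural and 3 of 10 immune markers rose and 0 fell. Among all tested genes 11.2% rose. The part of such cells in the Hox differences was not tested. This comparison shares the double knockout libraries with the one above. Of the 32 tested members 11 passed, 2 higher and 9 lower, which is 34.4% against 25.2% of all tested genes. Of all tested genes 14.1% fell, and the median log2 fold change of the tested members was -0.24. Hoxb8 fell by 2.05 ± 0.22, Hoxb6 fell by 1.64 ± 0.16 and Hoxd8 fell by 1.44 ± 0.13 (adjusted p = 0.0107 for each of the 3). Hoxb2 fell by 1.24 ± 0.16 (adjusted p = 0.0111), Hoxb3 fell by 0.96 ± 0.19 (0.0198), Hoxb9 fell by 0.91 ± 0.22 (0.0323) and Hoxb7 fell by 0.85 ± 0.15 (0.0165). Hoxc8 fell by 0.75 ± 0.14 (adjusted p = 0.017), and Hoxa5 fell by 0.52 ± 0.12 (adjusted p = 0.0279). Hoxd10 rose by 2.35 ± 0.64 (adjusted p = 0.0442) and Hoxc10 rose by 2.15 ± 0.58 (adjusted p = 0.0431). Hoxb5 (-0.77 ± 0.23, adjusted p = 0.0553), Hoxc6 (-0.51 ± 0.17, 0.0712) and Hoxd4 (-0.27 ± 0.20, 0.345) did not pass.

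Calls in this comparison were lost without double knockout replicate 1. In that fit 0 of the 32 members passed by edgeR, and 1 of all tested genes did (0.0049%), against 4952 with it. The adjusted p was then 0.0777 for Hoxb2, Hoxb6, Hoxb8 and Hoxd8, 0.088 for Hoxb3, 0.0881 for Hoxb7, 0.141 for Hoxb9, 0.083 for Hoxc8, 0.131 for Hoxa5, 0.148 for Hoxc10 and 0.231 for Hoxd10. The log2 fold changes were then -1.37 for Hoxd8, -1.50 for Hoxb6, -1.78 for Hoxb8, -1.06 for Hoxb2, -0.73 for Hoxb3, -0.72 for Hoxb7, -0.68 for Hoxb9, -0.59 for Hoxc8, -0.44 for Hoxa5, 2.16 for Hoxc10 and 1.60 for Hoxd10, in the same direction as with that library. The number of members called was 4 when LEF1cKO replicate 1 was left out (7.96% of all tested genes), 6 when WT replicate 1 was (10.7%) and 5 when WT replicate 2 was (10.3%), since WT libraries enter the estimate of the spread. With only the 2 groups in the fit it was 7 (13.7%).

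Other libraries ended single calls between the knockouts. Leaving out WT replicate 1 or 2 gave adjusted p of 0.0863 or 0.0886 for Hoxa5, 0.0535 or 0.0556 for Hoxb7, 0.0669 or 0.0722 for Hoxb9, 0.0821 or 0.0806 for Hoxc10 and 0.0926 or 0.093 for Hoxd10, and WT replicate 2 gave 0.0506 for Hoxc8. Leaving out LEF1cKO replicate 1 gave 0.0926 for Hoxa5, 0.0805 for Hoxb3, 0.058 for Hoxb7, 0.0626 for Hoxb9, 0.0516 for Hoxc8, 0.168 for Hoxc10 and 0.114 for Hoxd10. Leaving out LEF1cKO replicate 2 gave 0.0739 for Hoxb9 and 0.144 for Hoxd10, while Hoxa7 and Hoxa9 were then higher in the double knockout past the threshold (0.0225 and 0.031). Leaving out double knockout replicate 2 gave 0.0562 for Hoxa5 and 0.113 for Hoxc10, and Hoxc13 and Hoxd9 then passed (0.0313 and 0.0466). By DESeq2 Hoxc10 (0.0508) and Hoxd10 (0.0598) did not pass, while Hoxb5 (0.0144) and Hoxd9 (0.0183) did. The falls of Hoxb2, Hoxb6, Hoxb8 and Hoxd8 were lost in the fit without double knockout replicate 1 alone among the 6 such fits.

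In LEF1cKO against WT, the comparison that asks what loss of Lef1 alone goes with, 0 of the 32 tested members passed by edgeR, against 0.601% of all tested genes. At an unadjusted p under 0.05 there were 4 members, and 9.58% of all tested genes. DESeq2 called 4 (Hoxa5, Hoxa9, Hoxd4 and Hoxd8), against 607 of the 31448 genes with any count (1.93%). That total may hold genes that DESeq2's own filter leaves without an adjusted p, so the share of genes it judged may be higher. By limma on log2(TPM + 1) 0 were called, against 0.878% of the genes tested. The median log2 fold change of the tested members was -0.09. This comparison shares the WT libraries with the first one. Hoxd8 was the nearest to a call, with -0.87 ± 0.12 (unadjusted p = 0.000359, adjusted p = 0.0538). It passed with library size only (0.044), with no filter (0.0115), with a filter of 1 CPM in 2 libraries (0.0411) and by DESeq2 (1.8e-05). Hoxa5 had -0.63 ± 0.12 (adjusted p = 0.127), Hoxd4 -0.78 ± 0.20 (0.254) and Hoxa9 -1.81 ± 0.43 (0.226). Each of these 4 was lower in both LEF1cKO libraries than in both WT libraries. They are the members with an unadjusted p under 0.05 here, so this separation adds no support. In TPM others, such as Hoxa6, Hoxb4, Hoxb7, Hoxb9, Hoxc6 and Hoxc9, also lay lower without overlap, while Hoxc4, Hoxc13 and Hoxd10 lay higher. The fitted log2 fold changes of Hoxc4 (0.19 ± 0.20) and Hoxc13 (-0.02 ± 0.22) were smaller than their SE and give no direction. The share of all genes whose libraries separate in this way was not counted. For the 4 Hoxb members with the deepest falls in the double knockout, the values in LEF1cKO against WT were -0.05 ± 0.21 for Hoxb8, -0.21 ± 0.16 for Hoxb6, -0.48 ± 0.22 for Hoxb9 and -0.09 ± 0.15 for Hoxb2 (adjusted p = 0.974, 0.775, 0.571 and 0.926). A p that misses the threshold does not show that these levels are equal.

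Antisense and read-through transcripts of the clusters overlap several members, and it is not known here whether the counting used strand. Hoxd3os1, which overlaps Hoxd8, Hoxd4 and Hoxd3, was at 2.14 and 3.47 TPM in double knockout, 6.08 and 6.19 TPM in LEF1cKO and 8.43 and 9.70 TPM in WT libraries. It fell by 1.88 ± 0.35 against WT (adjusted p = 0.00997, and 0.0693 without WT replicate 2). The expected counts of Hoxd8 were whole numbers in every library. They were 466 and 524 in double knockout, 1573 and 1644 in LEF1cKO and 2778 and 3742 in WT libraries. They thus show no reads split between Hoxd8 and its antisense partner, and both fell. Whether reads of the other strand were counted as Hoxd8 was not tested. Halr1, a noncoding RNA of the Hoxa region, was at 0.81 and 0.91 TPM in double knockout, 1.88 and 3.31 TPM in LEF1cKO and 4.15 and 4.01 TPM in WT libraries. Halr1 fell by 2.36 ± 0.42 (adjusted p = 0.00894), and lost the call without WT replicate 1 (0.0544), WT replicate 2 (0.0633) or double knockout replicate 1 (0.0543). Gm28230, a read-through transcript over Hoxd3 and Hoxd4, was at 0.86 and 0.87 TPM in double knockout, 1.41 and 1.63 TPM in LEF1cKO and 1.64 and 2.04 TPM in WT libraries. It fell by 1.23 ± 0.25 (adjusted p = 0.0128), but not without WT replicate 1 (0.0519), WT replicate 2 (0.106) or double knockout replicate 1 (0.0625).

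Hotairm1, a noncoding RNA of the Hoxa cluster, was at 17.9 and 20.6 TPM in double knockout, 12.4 and 11.5 TPM in LEF1cKO and 13.3 and 13.9 TPM in WT libraries. Its double knockout libraries were the highest, and it did not pass (0.21 ± 0.24, adjusted p = 0.518). Hoxb3os (-0.53 ± 0.19, adjusted p = 0.07) and Hoxb5os (-0.74 ± 0.36, adjusted p = 0.151) had negative values like the Hoxb genes they overlap, without passing. Hoxaas2, Hoxaas3 and Haglr did not pass either (adjusted p = 0.25, 0.512 and 0.217). Hottip, Hoxa11os, Mir10a, Mir10b, Mir196a-2, Mir196b and Mir615 were at 0 in every library. With the counts of overlapping opposite-strand transcripts added to each member, 16 members passed in the double knockout set against WT and 13 against LEF1cKO, beside 37.6% and 25.2% of all tested genes. Hoxd3 was among the added calls (adjusted p = 0.0104 and 0.0291), from a sum that held Hoxd3os1. The annotated spans of some members, introns included, also overlap on the same strand. These are Hoxc5 with Hoxc6, Hoxc8, Hoxc9 and Hoxc10, Hoxa3 with Hoxa4, Hoxa5 and Hoxa6, and Hoxd3 with Hoxd4. An overlap of spans does not show that reads were split. Expected counts of Hoxa5 were whole numbers in every library, and those of Hoxc6 in all but WT replicate 1 (1046.31). Those of Hoxa3 and Hoxd4 held fractions in every library, as split reads would give.

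Genes that act with or upstream of Hox proteins were both higher and lower in the double knockout than in WT. Of 9 TALE cofactors 4 rose and 3 fell (median log2 fold change 0.70, against 0.01 for all tested genes). Pknox1 was at 15.6 and 14.8 TPM in double knockout, 30.8 and 24.3 TPM in LEF1cKO and 30.6 and 31.0 TPM in WT libraries, and fell by 1.2 ± 0.16 (adjusted p = 0.00489). Pbx2 was at 34.9 and 40.5 TPM in double knockout, 58.2 and 50.5 TPM in LEF1cKO and 59.0 and 65.5 TPM in WT libraries, and fell by 0.94 ± 0.13 (adjusted p = 0.00531). Meis3 was at 4.0 and 2.98 TPM in double knockout, 0.94 and 1.41 TPM in LEF1cKO and 1.02 and 0.48 TPM in WT libraries, and rose by 2.57 ± 0.48 (adjusted p = 0.0102). Pbx4 rose by 1.84 ± 0.34 (adjusted p = 0.0104). The call of Meis3 was lost without WT replicate 2 (0.0627) or double knockout replicate 1 (0.053), and that of Pbx4 without WT replicate 1 (0.0653) or 2 (0.0947). Leaving out 1 library left 0 to 4 rises and 2 to 3 falls on this list.

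Of 25 Polycomb and trithorax regulators 3 rose and 12 fell (median -0.38). Men1, the menin subunit of trithorax-type complexes, was at 27.3 and 30.7 TPM in double knockout, 49.0 and 45.1 TPM in LEF1cKO and 48.7 and 51.2 TPM in WT libraries, and fell by 0.91 ± 0.12 (adjusted p = 0.00465). Bmi1 and Suz12, subunits of the Polycomb complexes PRC1 and PRC2, fell by 0.93 ± 0.13 and by 0.86 ± 0.13 (adjusted p = 0.0053 and 0.0058). Cbx7, another PRC1 subunit, was at 14.2 and 15.0 TPM in double knockout, 5.28 and 7.56 TPM in LEF1cKO and 5.56 and 5.21 TPM in WT libraries, and rose by 1.34 ± 0.17 (adjusted p = 0.00426). Activators and repressors of Hox clusters were thus both among the falls. Leaving out 1 library left 1 to 3 rises and 4 to 13 falls.

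Of 13 tested retinoid and Cdx genes, of 19 on the list, 5 rose and 0 fell (median 0.21). Aldh1a1, which makes retinoic acid, was at 5.43 and 4.81 TPM in double knockout, 0.99 and 1.85 TPM in LEF1cKO and 0.81 and 0.50 TPM in WT libraries, and rose by 2.83 ± 0.40 (adjusted p = 0.00539). Cyp26b1, which breaks retinoic acid down, was at 40.9 and 30.3 TPM in double knockout, 3.02 and 10.9 TPM in LEF1cKO and 3.97 and 2.41 TPM in WT libraries, and rose by 3.35 ± 0.59 (adjusted p = 0.00894). Crabp1, a retinoic acid binding protein also made by dermal papilla cells, rose by 2.5 ± 0.46 (adjusted p = 0.00978), and Rxrg, a retinoid receptor, rose by 2.40 ± 0.58 (adjusted p = 0.0222). Cdx1 and Cdx2, activators of Hox genes in the embryo, were at 0 in every library. Without WT replicate 2 the adjusted p was 0.0597 for Cyp26b1, 0.0639 for Crabp1 and 0.0601 for Rxrg. Without double knockout replicate 1 it was 0.0523, 0.0565 and 0.106, and without WT replicate 1 it was 0.0579 for Crabp1 and 0.113 for Rxrg. Leaving out 1 library left 1 to 5 rises. The fibroblast markers given above rose in the same libraries, and their part in these rises was not tested.

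Hair shaft and hair matrix genes, listed for a link to Hoxc13, changed in both directions. Whether each of them is a target of Hoxc13 was not tested. Of 17 found 12 were tested, 2 rose and 6 fell, with a median log2 fold change of -2.82, or -2.70 with Krt81, which was at 0 in both double knockout libraries, set to a floor of 3 counts per library. Dlx3, a transcription factor of the hair matrix, was at 5.52 and 6.61 TPM in double knockout, 124 and 64.7 TPM in LEF1cKO and 123 and 102 TPM in WT libraries, and fell by 4.34 ± 0.38 (adjusted p = 0.00265). Foxn1, the gene mutated in nude mice, was at 5.05 and 5.64 TPM in double knockout, 1.74 and 2.28 TPM in LEF1cKO and 1.30 and 1.51 TPM in WT libraries, and rose by 1.79 ± 0.23 (adjusted p = 0.00446). Krt83, a hair keratin, fell by 3.56 ± 0.50 (adjusted p = 0.00536), and Padi3, an enzyme that modifies hair proteins, fell by 5.49 ± 0.78 (adjusted p = 0.00553), both at 2.80 TPM or less in every library. Hoxc13 itself was not called, as given above. Leaving out 1 library left 1 to 3 rises and 5 to 7 falls.

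Genes that flank the clusters were read for comparison with the Hox genes beside them. Of 11 found 8 were tested, 2 rose and 2 fell (median 0.20). Cbx5, beyond the Hoxc cluster, was at 36.7 and 35.2 TPM in double knockout, 63.1 and 61.5 TPM in LEF1cKO and 66.6 and 71.2 TPM in WT libraries, and fell by 1.08 ± 0.10 (adjusted p = 0.00288). Mtx2, beside the Hoxd cluster, was at 68.3 and 75.9 TPM in double knockout, 121 and 110 TPM in LEF1cKO and 122 and 124 TPM in WT libraries, and fell by 0.97 ± 0.12 (adjusted p = 0.00408). Hibadh, near the Hoxa cluster, rose by 0.64 ± 0.15 (adjusted p = 0.0203), and Calcoco1, near the Hoxc cluster, rose by 0.45 ± 0.11 (adjusted p = 0.0233). Both rises were lost without WT replicate 1 (0.0894 for Hibadh and 0.0785 for Calcoco1), WT replicate 2 (0.127 and 0.206) or double knockout replicate 1 (0.0817 and 0.0553), and that of Calcoco1 also without double knockout replicate 2 (0.0931). Evx1, beyond the posterior end of the Hoxa cluster, was at 0 in every library. In LEF1cKO against WT, 0 members of these 5 lists passed.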

How the data were processed

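RNA-seq was measured in 6 libraries, 2 per genotype, with groups read from the titles. The submitters' processing notes name Bowtie2 2.2.9, RSEM 1.2.30 and mm10; annotation release and strand setting are not given in the sources used here. Each expected count was deposited as RSEM wrote it, with reads shared between genes split by its model and no normalization. The deposited TPM are RSEM's too, scaled for effective length and library, per the file headers. Of 46517 genes, 46005 (98.9%) had an identifier in GENCODE M21, the source of positions, and 92 spike-in identifiers held 0 counts and were dropped.

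After rounding, expected counts were fitted in edgeR 4.0.16 (R 4.3.3) using TMM factors of 0.962 to 1.04, filterByExpr by group, the quasi-likelihood F test on all 6 libraries (3 residual degrees of freedom, biological coefficient of variation 0.232) and Benjamini-Hochberg adjustment over 19640 genes at 0.05. "Rose", "fell" and "passed" refer to this test, and errors on log2 fold changes are SE. Depth ran from 40480694 to 63220022 counts, so that a count of 0 may stand for up to 3 counts, or 0.0475 to 0.0741 CPM, by counting error only. Promoter sequences are from RefSeq.

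Members with a mean of 1 TPM in any group, or past the threshold in any comparison, were named with all values, as were up to 4 genes with the smallest p from each list of cofactors, regulators, hair shaft and flanking genes. Not every gene so named is printed for the lists of other cell types, and Hoxa10, Hoxc12, Krt14 and Krt15 were named after their values were seen. The values of 1 member are not reported here. Members and lists were chosen with earlier results of these data known. Other settings tried were DESeq2 1.42.0, RLE size factors, no scaling beyond library size, a filter of 1 CPM in 2 libraries or none, limma 3.58.1 on log2(TPM + 1), with and without the filter, and on log2(TPM + 0.1), a replicate block, only the 2 groups compared, and leaving out each library. Summing overlapping transcripts into each member was added after the data were seen.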

Additional observations from a re-analysis of the deposited data

How the results depend on the processing

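Of 93 member results over 3 comparisons, 26 were called and 0 of these reversed under any of 18 alternatives. Only 5 called values, all for the double knockout against WT (Hoxa5, Hoxb2, Hoxb6, Hoxb8 and Hoxd8), held in all 6 fits that left out 1 library. Leaving out 1 library gave 5 to 14 called members in the double knockout against WT, 0 to 11 against LEF1cKO, and 0 in LEF1cKO against WT. In both double knockout comparisons the share of all tested genes called also changed widely with the library left out, as given above for several fits. These ranges are therefore not particular to the Hox members. With only the 2 groups compared, 7 members were called between the knockouts in place of 11 (13.7% of all tested genes in place of 25.2%). LEF1cKO against WT gave 1 with library size only (0.611% of all tested genes), 2 with no filter (1.34%) and 1 with the 1 CPM filter (0.835%), in place of 0 (0.601%). It gave 4 by DESeq2 (1.93% of the genes with any count). The causes were not tested.

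The replicate numbers do not pair the libraries in the labels, and same-numbered libraries did not deviate together (correlations of deviations 0.0558, -0.0276 and -0.0421 for double knockout with WT, double knockout with LEF1cKO and LEF1cKO with WT). With the replicate block 13 members were called in the double knockout against WT (32.8% of all tested genes), 8 between the knockouts (18.5%) and 0 in LEF1cKO against WT (0.407%). With it Hoxb5 (adjusted p = 0.0731) and Hoxc4 (0.083) no longer passed against WT, nor did Hoxa5 (0.0501), Hoxc10 (0.0733) and Hoxd10 (0.0521) between the knockouts. Values smaller than their SE were given no direction. Uncalled values that reversed were Hoxd3 in the double knockout against LEF1cKO (-1.68 without LEF1cKO replicate 2 to 0.47 without LEF1cKO replicate 1) and in LEF1cKO against WT (-0.59 without LEF1cKO replicate 1 to 1.55 without LEF1cKO replicate 2, -0.25 with opposite-strand and -0.30 with all overlapping transcripts summed in). Low counts limit Hoxa10, Hoxc10, Hoxc12, Hoxd1, Hoxd3 and Hoxd10, whose SE ran from 0.55 to 1.11 in the double knockout against WT.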
